A study of Mus musculus with 14 samples.

Results

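Vegfa, Vegfb, Vegfc, Pgf, Angpt1, Angpt2, Apln, Aplnr, Nrp1 and Thbs1 encode secreted regulators of blood vessel growth, a pair of their receptors and an inhibitor, and their transcripts were measured in skeletal muscle of mice that overexpressed c-Myc in endothelial cells and of controls on either of 2 diets. The genes were chosen by symbol, with earlier results of these data known, and all 10 were found among the 54532 genes in the table of read counts. All 10 were among the 15458 genes with enough reads to be tested, and none had a count of 0 in any library.

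Poly-A selected RNA from soleus and gastrocnemius muscle was sequenced in 14 libraries, and the labels do not say which muscle each library came from. All groups were male FVB/N mice that carried Tet-O-Myc, a human c-Myc transgene on the Y chromosome. The control genotype (CT) lacked the Cdh5-tTA transactivator, so its transgene was not driven. The EC-Myc OE genotype (OE) also carried Cdh5-tTA, which drives the transgene from an endothelial promoter once doxycycline is withdrawn, here between 4 and 6 weeks of age. Each genotype was fed a control diet (CTD) or a western-type high-fat diet (WD) for 20 weeks. This gave 3 CT-CTD, 3 CT-WD, 4 OE-CTD and 4 OE-WD libraries.

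Depth was alike in the 4 groups. Total counts ran from 24101226 to 25054855 in CT-CTD, from 21833839 to 26518734 in CT-WD, from 22083340 to 28519159 in OE-CTD and from 22033140 to 27698046 in OE-WD. Levels are given as CPM, counts scaled to library size after TMM normalization, which removes differences in library composition. Different genes are ordered by FPKM, in which fragments are scaled to gene length as well as depth.

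Several features of the libraries bear on every comparison. The labels do not say that the libraries of a group came from separate animals, so the tests measure spread between libraries, which may be technical. The library names in the labels hold a number. Each CT library and OE-CTD replicate 4 has a number of its own, whereas OE-CTD replicates 1 to 3 share a number and all 4 OE-WD libraries share another. What the numbers stand for is not given in the sources used here, and whether libraries of a shared number came from 1 animal cannot be told. If they did, the OE genotype would rest on 3 animals, 1 of them on western diet, and the SD, standard errors and p-values given for 8 OE libraries would be too small.

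The spread between libraries followed these numbers in part. As a measure of distance, chi-square divided by its degrees of freedom was at most 11.0 among OE-CTD replicates 1 to 3 and 8.76 to 15.7 among OE-WD replicates 1 to 3, against 17.6 to 52.9 between CT libraries of a group. OE-CTD replicate 4 stood at 38.98 or more from the other OE-CTD libraries. OE-WD replicate 4, which shares its number with the other OE-WD libraries, stood at 40.7 to 44.3 from them. The genotype differences of the 10 genes over both diets are therefore also given with libraries of a shared number summed, as are the counts of calls within each diet. Summing leaves 9 units (3 CT-CTD, 3 CT-WD, 2 OE-CTD and 1 OE-WD). The single OE-WD unit is then assumed to vary like those of the other groups.

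The larger groups in the study's description of its transcriptome are those on western diet, whereas in the labels they are those of the OE genotype. Groups follow the labels here. If the names CT-WD and OE-CTD were exchanged, the genotype differences reported here would be read as diet differences and the reverse, and the interaction would be unchanged. A shorter diet than the labels give is also named in the study's text for the transcriptome.

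No gene in the tables checked the genotype labels directly. Mouse Myc stood at 4.59, 6.11 and 4.45 CPM in CT-CTD, at 8.71, 4.93 and 13.3 CPM in CT-WD, at 6.63, 5.87, 6.84 and 3.06 CPM in OE-CTD, and at 9.03, 5.61, 5.74 and 5.22 CPM in OE-WD. The ranges of the 4 groups overlapped, and the highest library was a CT-WD library. Mouse Myc does not report the human transgene, whose reads were not analysed here.

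The labelled tissue was supported by muscle fibre transcripts. Myh4 averaged 48980.2 CPM, Acta1 42921 CPM and Ckm 13426 CPM. The 13 fibre markers together made up 143035 to 201904 CPM, and none was at 0 in all libraries.

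Replicate 4 of each OE group stood apart from the rest. Mitochondrial transcripts took 14.9% of the counts in OE-CTD replicate 4 and 14.5% in OE-WD replicate 4, against 9.66% to 12.8% in the other 12 libraries. Their TMM factors were 0.888 and 0.899. CT-WD replicate 1 differed from the other CT libraries in another way: its 10 fibroblast markers summed to 2077 CPM, against 803 to 1122 CPM in the other 5. CT-CTD replicate 1, whose label number is next to that of CT-WD replicate 1, was highest of its group at 1122 CPM. Of all replicates of equal number, this pair had the most correlated deviations from the group mean (0.385). What the neighbouring numbers stand for is not given. The genotype difference of each of the 10 genes is given with and without both replicate 4 libraries, and with and without CT-WD replicate 1. Without OE-CTD replicate 4, alone or with OE-WD replicate 4, each OE group holds only libraries of a shared number. Calls gained in those fits are subject to that limit.

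Vascular endothelial growth factors signal through Flt1, Kdr and Flt4 with neuropilins as co-receptors, and Vegfa made by muscle fibres maintains the capillary bed of skeletal muscle. Angpt1 activates the endothelial receptor Tek (Tie2) and stabilises vessels, whereas Angpt2, stored and released by endothelial cells, can oppose it. Apelin (Apln) is made largely by sprouting endothelial tip cells and acts on the G-protein-coupled receptor Aplnr, and thrombospondin 1 (Thbs1) is a matrix glycoprotein that inhibits angiogenesis.

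The levels of the 10 genes fell into 3 tiers on the FPKM scale. Vegfb averaged 89.2 ± 9.14 FPKM and Vegfa 74.6 ± 9.91 FPKM (SD, n = 14), and their ranges overlapped between 76.7 and 89.3 FPKM. A middle tier held Angpt1 at 4.56 ± 1.17, Aplnr at 4.48 ± 1.98, Nrp1 at 3.27 ± 0.575 and Thbs1 at 3.20 ± 1.79 FPKM. Angpt1 and Aplnr did not differ beyond their spread, nor did Nrp1 and Thbs1, whereas the step from Aplnr to Nrp1 was larger than the SD of Nrp1 and smaller than that of Aplnr. The lowest tier held Vegfc at 1.03 ± 0.292, Apln at 0.8291 ± 0.413, Angpt2 at 0.815 ± 0.287 and Pgf at 0.677 ± 0.240 FPKM, again with steps smaller than their spread.

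The 10 genes differed in read number and in spread. Vegfa had 4343 to 10326 counts in a library, whereas Apln had 8 to 122 and Pgf 9 to 61. The highest Apln library was 12.1-fold above the lowest in CPM, and the lowest was the library with 8 counts. Thbs1 spanned 8.63-fold, Pgf 6.89-fold and Aplnr 5.82-fold. Relative to the mean, the SD over the 14 libraries was largest for Thbs1, at 56.2%, followed by Apln at 49.9% and Aplnr at 44.3%. Vegfb varied least on both measures, at 1.34-fold and 9.74%.

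**Figure D1:**
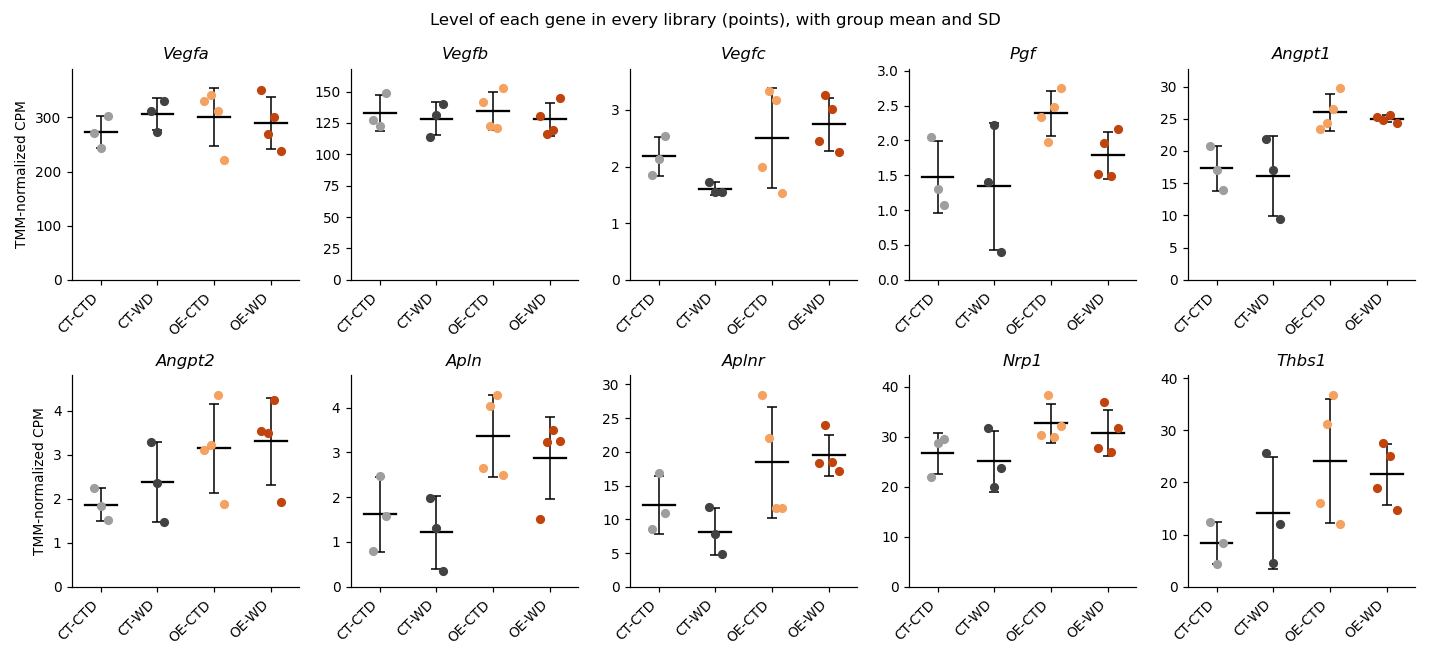
Level of each of the 10 genes (CPM after TMM scaling, linear axes from 0) in the 14 libraries, with points for libraries, horizontal lines for group means and whiskers for 1 SD (CT-CTD and CT-WD n = 3, OE-CTD and OE-WD n = 4). All 8 OE points of Angpt1 lie at or above 23.3 CPM and all 6 CT points at or below 21.9 CPM.

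The genotypes were compared over both diets with edgeR, as the mean of the OE groups minus the mean of the CT groups, to ask whether endothelial c-Myc changed these transcripts. With the 14 libraries counted separately, Angpt1, Apln and Aplnr passed an adjusted p under 0.05, all higher in OE, making 3 of 10 genes. The same rule was met by 8.49% of all genes tested, and by 5.04% in the higher direction. At an unadjusted p under 0.05 it was 7 of 10 genes, all higher, against 23.9% of all genes and 13.1% in the higher direction. All 10 log2 fold changes were above 0, against 49.7% of all genes, and their median was 0.58 beside −0.0012 for all genes. The members were chosen with earlier results of these data known, so the shares describe them and are no test of the set. In bulk tissue, more cells of a type and more RNA per cell cannot be told apart.

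That count depended on the unit of replication. With libraries of a shared number summed, edgeR called 0 of the 10 genes and 0.0453% of all genes. In that fit 9 of 10 log2 fold changes were above 0, and the share of all genes above 0 was not computed for it. For the summed comparisons within a diet, the share of all genes at an unadjusted p was not computed either. No other tool was run on the summed libraries.

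The count also moved with single libraries, and the number of all genes called moved too. With all 14 libraries, 1312 of all genes were called. Without CT-CTD replicate 3 the member count was 0, and 713 of all genes were called. It was 1 without CT-CTD replicate 1 (1260 of all genes), CT-WD replicate 2 (707), CT-WD replicate 3 (842), OE-CTD replicate 2 (822) or OE-WD replicate 2 (793). It was 5 without OE-CTD replicate 4 (1494) and 6 without CT-WD replicate 1 (2487). Leaving out both high-mitochondrial libraries also gave 5 (1656). Without OE-CTD replicate 4, alone or with the other, each OE group holds only libraries of a shared number. A block for replicate number, a pairing that the labels do not give, gave 5 (1695). It dropped Apln and added Vegfc, Angpt2 and Thbs1.

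**Figure D2:**
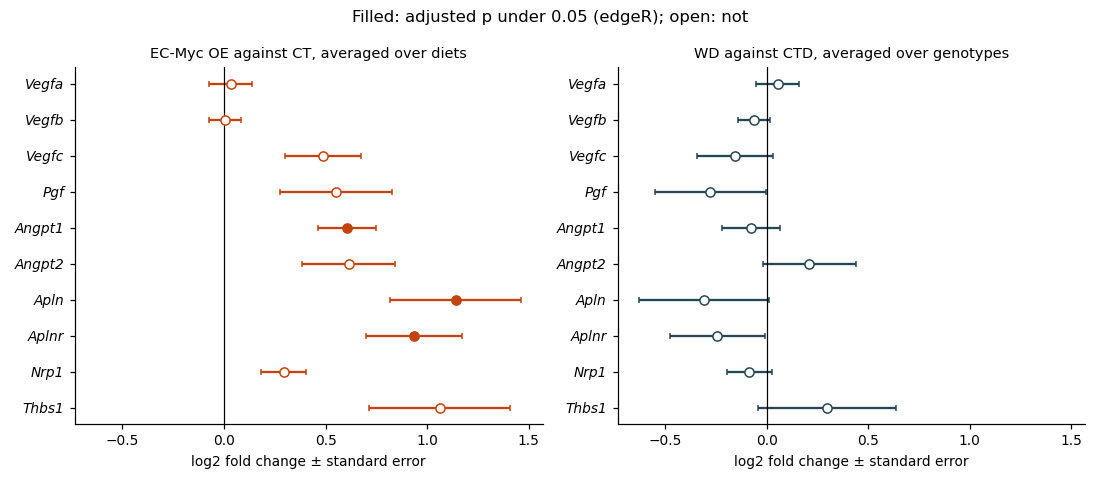
Log2 fold change of each of the 10 genes (edgeR, 14 libraries counted separately, x axis) for OE against CT averaged over diets (left) and for WD against CTD averaged over genotypes (right), with points for estimates, filled at an adjusted p under 0.05, and lines for 1 standard error. On the left, all 10 points lie above 0, from 0.01 for Vegfb to 1.14 for Apln.

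Among the ligands, Vegfa, the main angiogenic factor of muscle fibres, did not pass the test between genotypes. It averaged 273 ± 29.7 CPM in CT-CTD and 306 ± 29.6 CPM in CT-WD (SD, n = 3), and 301 ± 54.1 CPM in OE-CTD and 289.9 ± 48.2 CPM in OE-WD (SD, n = 4). The averaged log2 difference was 0.03 (SE 0.106, adjusted p = 0.895), with a 95% interval from −0.18 to 0.24. This and all later 95% intervals use a normal quantile and are somewhat too narrow. Its lowest libraries were OE-CTD replicate 4 at 222 CPM and OE-WD replicate 4 at 238 CPM, both high in mitochondrial transcripts. Without both, the log2 difference was 0.13 (adjusted p = 0.298), and without CT-WD replicate 1 it was 0.0400. It was −0.0373 with libraries of a shared number summed. The part of that share in the low values was not tested.

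Vegfb, which binds Flt1 and is tied to fatty acid handling, was also near 0 in the genotype comparison. CT libraries ran from 114 to 149 CPM and OE libraries from 116 to 153 CPM. The log2 difference was 0.01 (SE 0.0789, adjusted p = 0.977), and its 95% interval of −0.15 to 0.16 was the narrowest of the 10. It was −0.0637 without the high-mitochondrial libraries, −0.0598 with replicate number as a block and −0.0349 without CT-WD replicate 1. After summing by shared number it was 0.0317.

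Vegfc, the ligand of Flt4 in lymphatic growth, was low. It stood at 1.86, 2.13 and 2.54 CPM in CT-CTD, at 1.74, 1.55 and 1.56 CPM in CT-WD, at 1.99, 3.33, 3.17 and 1.53 CPM in OE-CTD, and at 2.45, 3.26, 3.02 and 2.25 CPM in OE-WD. The OE-WD libraries were all above the CT-WD libraries, whereas OE-CTD replicate 4 was the lowest of all 14. The averaged log2 difference was 0.49 (SE 0.187, adjusted p = 0.122). It passed at 0.57 (adjusted p = 0.0440) without OE-CTD replicate 4 and at 0.61 (adjusted p = 0.0350) without both high-mitochondrial libraries. Without CT-WD replicate 1 it was 0.52 (adjusted p = 0.104), and summed by shared number 0.40 (adjusted p = 0.629).

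Pgf, a ligand of Flt1, ranged from 0.400 to 2.22 CPM in CT and from 1.49 to 2.76 CPM in OE. CT-WD replicate 3 was its lowest library. The log2 difference of 0.55 (SE 0.274, adjusted p = 0.236) did not pass. It was 0.46 without the high-mitochondrial libraries, 0.57 without CT-WD replicate 1 and 0.58 (adjusted p = 0.689) summed by shared number. Single omissions moved it further, from 0.34 without CT-WD replicate 3 to 0.82 without CT-WD replicate 2. Settings other than single omissions gave 0.24 to 0.59.

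Angpt1, the activating ligand of Tek, had the smallest adjusted p of the 10 genes. CT-CTD libraries held 20.8, 17.1 and 13.98 CPM, and CT-WD libraries 21.9, 17.0 and 9.47 CPM. OE-CTD libraries held 23.3, 24.3, 26.6 and 29.8 CPM, and OE-WD libraries 25.2, 24.8, 25.6 and 24.3 CPM. Every OE library lay above every CT library, an order found for 1.06% of all genes tested. Summed by shared number, the OE units were at 24.3, 29.4 and 24.6 CPM, also above every CT library. The OE-WD libraries lay close together (25.0 ± 0.555 CPM, SD, n = 4), whereas the CT-WD libraries were spread out (16.1 ± 6.25 CPM, SD, n = 3).

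With 14 libraries counted separately, Angpt1 was 1.52-fold higher in OE over both diets, a log2 difference of 0.61 (SE 0.143, adjusted p = 0.0172) with a 95% interval from 0.33 to 0.89. It ranked 589 of 15458 genes by p. The difference was 0.58 (adjusted p = 0.0350) without the high-mitochondrial libraries and 0.75 (adjusted p = 0.00155) without CT-WD replicate 1. With libraries of a shared number summed it was of like size, 0.64, but did not pass (adjusted p = 0.366). Leaving out CT-CTD replicate 3 ended the call, with a log2 difference of 0.54 (adjusted p = 0.0538).

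Angpt2, the context-dependent antagonist of Angpt1, was below Angpt1 in all 14 libraries on the FPKM scale. It stood at 2.25, 1.84 and 1.51 CPM in CT-CTD, at 3.29, 2.37 and 1.47 CPM in CT-WD, at 3.11, 3.23, 4.37 and 1.89 CPM in OE-CTD, and at 3.54, 3.51, 4.25 and 1.93 CPM in OE-WD. Replicate 4 was the lowest of each OE group and fell within the CT range. The averaged log2 difference was 0.61 (SE 0.230, adjusted p = 0.115). Angpt2 passed at 0.79 (adjusted p = 0.0225) without both replicate 4 libraries, a fit in which each OE group holds only libraries of a shared number. It also passed at 0.77 (adjusted p = 0.0385) without CT-WD replicate 1, its highest CT library. Summed by shared number it was 0.51 (adjusted p = 0.6098).

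Apln, the ligand, had a log2 genotype difference that was the largest of the 10 genes in the 14-library fit, with Thbs1 next. Thbs1 was the larger of the pair without CT-WD replicate 1, without the high-mitochondrial libraries and with the replicate block, and in limma on log2(FPKM + 1). Apln was at 0.791, 2.47 and 1.59 CPM in CT-CTD, and at 1.99, 1.30 and 0.356 CPM in CT-WD. OE-CTD libraries held 2.65, 4.02, 4.29 and 2.50 CPM, and OE-WD libraries 1.52, 3.23, 3.49 and 3.25 CPM. All 8 OE libraries were above the CT median of 1.45 CPM, an order whose share over all genes was not computed. OE-WD replicate 1 was the single OE library within the CT range. The lowest library, CT-WD replicate 3, had 8 counts.

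With 14 libraries counted separately, Apln was 2.20-fold higher in OE over both diets, a log2 difference of 1.14 (SE 0.324, adjusted p = 0.0408) with a 95% interval from 0.50 to 1.77. The adjusted p lay close to the threshold. It was between 0.0508 and 0.0905 when any of 10 libraries was left out: CT-CTD replicates 1 and 3, CT-WD replicates 2 and 3, OE-CTD replicates 1, 2 and 3, and OE-WD replicates 2, 3 and 4. The log2 difference in those fits ran from 0.93, without CT-WD replicate 3, to 1.19, without OE-CTD replicate 1. Without both high-mitochondrial libraries it was 1.16 (adjusted p = 0.0540), and without CT-WD replicate 1 it was 1.43 (adjusted p = 0.00998). With replicate number as a block, Apln also missed the threshold. Summed by shared number, Apln was at 1.08 and did not pass (adjusted p = 0.454).

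Aplnr, the apelin receptor, also passed in the 14-library fit. CT-CTD libraries held 8.50, 16.8 and 10.9 CPM, and CT-WD libraries 11.8, 7.78 and 4.89 CPM. OE-CTD libraries held 28.5, 22.01, 11.7 and 11.7 CPM, and OE-WD libraries 18.4, 23.9, 18.5 and 17.1 CPM. On western diet the genotypes did not overlap, whereas on control diet OE-CTD replicates 3 and 4 fell within the CT-CTD range. All 8 OE libraries were above the CT median of 9.71 CPM, an order also found for Pgf and Nrp1. Its share over all genes was not computed.

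Over both diets Aplnr was 1.91-fold higher in OE, a log2 difference of 0.93 (SE 0.236, adjusted p = 0.0240) with a 95% interval from 0.47 to 1.40. The call ended at adjusted p values of 0.0502 to 0.0657 when CT-CTD replicate 1, CT-CTD replicate 3, CT-WD replicate 2, CT-WD replicate 3, OE-CTD replicate 2 or OE-WD replicate 2 was left out. The log2 difference then ran from 0.80, without CT-WD replicate 3, to 0.92, without CT-WD replicate 2. It was 1.04 (adjusted p = 0.0187) without the high-mitochondrial libraries and 1.12 (adjusted p = 0.00597) without CT-WD replicate 1. After summing by shared number it was 0.85 and did not pass (adjusted p = 0.351). Over the 14 libraries, Apln and Aplnr correlated at a Pearson r of 0.777 in log2 CPM, the second highest of the 45 pairs among the 10 genes, after Pgf and Angpt1 at 0.845. Even so, OE-CTD replicate 3 was the highest library for Apln and among the lowest OE libraries for Aplnr.

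Nrp1, the co-receptor that binds Vegfa and class 3 semaphorins, stood at 21.9, 28.7 and 29.5 CPM in CT-CTD, at 31.8, 19.9 and 23.7 CPM in CT-WD, at 30.2, 38.4, 30.0 and 32.1 CPM in OE-CTD, and at 27.7, 36.9, 26.9 and 31.7 CPM in OE-WD. CT-WD replicate 1 was its highest CT library, and the genotypes overlapped. The averaged log2 difference was 0.29 (SE 0.113, adjusted p = 0.125). It passed at 0.40 (adjusted p = 0.0182) without CT-WD replicate 1, and was again 0.29 without the high-mitochondrial libraries (adjusted p = 0.164) and when summed by shared number (adjusted p = 0.563).

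Thbs1, the inhibitor, varied widely inside each genotype. CT-CTD libraries held 12.5, 4.27 and 8.46 CPM, and CT-WD libraries 25.7, 4.49 and 12.003 CPM. OE-CTD libraries held 16.0, 31.2, 36.8 and 12.04 CPM, and OE-WD libraries 18.9, 27.5, 25.1 and 14.7 CPM. All 8 OE libraries were above the CT median of 10.2 CPM, but CT-WD replicate 1 exceeded 5 of them. The share of all genes with all OE libraries above the CT median was not computed.

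The Thbs1 log2 difference over both diets was 1.06 (SE 0.349, adjusted p = 0.0733), with a 95% interval from 0.38 to 1.74. It passed at 1.45 (adjusted p = 0.00838) without CT-WD replicate 1 and at 1.17 (adjusted p = 0.0435) without OE-CTD replicate 4. Without both high-mitochondrial libraries it was 1.24 (adjusted p = 0.0412), and with libraries of a shared number summed 0.94 (adjusted p = 0.553).

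Within western diet, OE-WD against CT-WD asked whether genotype mattered under the obesogenic diet. None of the 10 genes passed in edgeR, where 0.725% of all genes did. At an unadjusted p under 0.05 it was 4 of 10, against 16.9%. DESeq2 called 1, Aplnr, with an adjusted p of 0.0399, among 557 of the 27899 genes in its fit, and limma on FPKM called 0. With no filter on low counts, edgeR called Angpt1 and Aplnr, among 560 of 27899 genes. Vegfc, Angpt1 and Aplnr did not overlap between these groups and were higher in OE-WD, an order met by 6.06% of all genes. Summed by shared number, edgeR called 0 of the 10 genes and 0 of all genes, with 1 of 10 at an unadjusted p under 0.05.

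The largest of these log2 differences was 1.25 for Aplnr (SE 0.339, adjusted p = 0.0936). Apln differed by 1.21 (SE 0.465, adjusted p = 0.207), Vegfc by 0.76 (SE 0.268, adjusted p = 0.171) and Angpt1 by 0.63 (SE 0.202, adjusted p = 0.141). Of the others, Thbs1 was at 0.60, Angpt2 at 0.47, Pgf at 0.42, Nrp1 at 0.29, Vegfb at −0.01 and Vegfa at −0.08. Of the single-library omissions, 1 gave calls among the 10 members in edgeR, that of CT-WD replicate 1, and it raised the number of all genes called from 112 to 1499. The other omissions gave 4 to 131 of all genes. Without CT-WD replicate 1, Angpt1 reached 0.92 (adjusted p = 0.0115), Apln 1.80 (adjusted p = 0.0465) and Aplnr 1.62 (adjusted p = 0.0167). Without CT-WD replicate 3 they moved the other way, to 0.36 for Angpt1, 0.79 for Apln and 0.99 for Aplnr. Over single omissions Thbs1 ran from 0.19 to 1.38, Angpt2 from 0.22 to 0.79 and Nrp1 from 0.15 to 0.50.

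Within control diet, OE-CTD against CT-CTD gave the genotype difference without western diet. Again no member passed in edgeR, where 2.67% of all genes did. At an unadjusted p under 0.05 it was 4 of 10, against 15.9%, and both DESeq2 and limma on FPKM called 0. With no filter on low counts, edgeR called 2 members, among 760 of 27899 genes. The groups fitted alone gave 1, among 596 of 14758 genes. A block for replicate number gave 2, Apln and Thbs1, among 776 of 14758 genes. Angpt1, Apln and Nrp1 were higher in OE-CTD with no overlap, as were 8.73% of all genes. After summing, edgeR called 0 of the 10 genes and 1 of all genes, with 1 of 10 at an unadjusted p under 0.05.

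In this comparison Thbs1 had the largest log2 difference, 1.52 (SE 0.504, adjusted p = 0.133). Apln followed at 1.06 (SE 0.451, adjusted p = 0.254), then Angpt2 at 0.76 (SE 0.329, adjusted p = 0.268). Pgf was at 0.69, Aplnr at 0.62, Angpt1 at 0.59, Nrp1 at 0.29, Vegfc at 0.21, Vegfa at 0.14 and Vegfb at 0.02. Over single omissions Aplnr ran from 0.33 to 0.93, Vegfc from 0.04 to 0.38, Nrp1 from 0.17 to 0.37 and Vegfa from 0.07 to 0.26. The member medians were 0.54 on western diet and 0.60 on control diet.

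Western against control diet in the CT genotype asked what the diet alone did. It called 0 of 10 genes in edgeR and 0 of all genes (0%), and the smallest adjusted p of any gene was 0.277. At an unadjusted p under 0.05 it was 0 of 10, against 7.28% of all genes, and DESeq2 and limma on FPKM called 0 members. The log2 differences ran from −0.56 for Aplnr (SE 0.358, adjusted p = 0.837) to 0.75 for Thbs1 (SE 0.528, adjusted p = 0.855). The Thbs1 value rested on CT-WD replicate 1, without which it was −0.02. Vegfc was lower in every CT-WD library than in every CT-CTD library, as were 5.16% of all genes, and its log2 difference was −0.43 (SE 0.287, adjusted p = 0.844).

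In the OE genotype, western against control diet also called 0 of 10 genes in edgeR, beside 0.00647% of all genes. At an unadjusted p under 0.05 the count was 0 of 10, against 4.2%, and DESeq2 and limma on FPKM gave 0. Values ran from −0.41 for Pgf (SE 0.347) to 0.12 for Vegfc (SE 0.237), so the span was narrower than in CT. With diet averaged over genotypes, edgeR, DESeq2 and limma on FPKM each called 0, where edgeR called 0.00647% of all genes, and 0 of 10 had an unadjusted p under 0.05, against 5.96%. Those values ran from −0.31 for Apln (SE 0.320, adjusted p = 0.987) to 0.30 for Thbs1 (SE 0.342, adjusted p = 0.998).

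The interaction asked whether the diet response differed between genotypes. It called 0 of 10 genes in edgeR and 0% of all genes, 0 of 10 at an unadjusted p under 0.05 against 5.92%, and 0 in DESeq2 and limma on FPKM. Aplnr had the highest value, 0.63 (SE 0.464, adjusted p = 0.893), and Thbs1 the lowest, −0.91 (SE 0.684, adjusted p = 0.898). Both values moved with single libraries. Aplnr ran from 0.316, without CT-CTD replicate 2, to 1.004, without CT-WD replicate 1. Thbs1 ran from −1.33, without CT-WD replicate 2, to −0.139, without CT-WD replicate 1. For the called genes, Angpt1 was at 0.04 and Apln at 0.15 (SE 0.638). The 95% intervals were wide, from −1.10 to 1.40 for Apln and from −2.25 to 0.43 for Thbs1. The genotype differences of Aplnr on western and on control diet were therefore not shown to differ.

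Receptors and binding partners of these ligands were compared in the same way. Of 16 such genes, 14 were tested (all but Apela and Angpt4). Over both diets 8 were higher and 0 lower in OE at an adjusted p under 0.05 in edgeR with 14 libraries, and 10 higher and 1 lower at an unadjusted p under 0.05. Of all genes tested, 5.04% were higher and 3.45% lower at the adjusted rule, and 13.1% and 10.8% at the unadjusted rule. The list was chosen with earlier results of these data known, so these counts are a description. The list's median log2 difference was 0.42 beside −0.0012 for all genes. The count was 9 in DESeq2 and 6 in limma on FPKM, and 10 without both high-mitochondrial libraries. In those fits 6.36%, 5.12% and 10.8% of all genes were called in either direction. It fell to 5 without CT-WD replicate 2, OE-CTD replicate 1, OE-CTD replicate 2 or OE-WD replicate 2. Summing by shared number left 0 in edgeR, with a list median of 0.42. The values that follow count the 14 libraries separately.

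Tek, the receptor of Angpt1, averaged 23.9 ± 3.80 CPM in CT (SD, n = 6) and 32.5 ± 3.23 CPM in OE (SD, n = 8), a log2 difference of 0.45 (SE 0.0774, adjusted p = 0.00333). Its orphan relative Tie1 was at 39.1 ± 2.10 and 51.9 ± 6.43 CPM, a difference of 0.41 (SE 0.0800, adjusted p = 0.00662). So ligand Angpt1 and both receptors of the Tie family passed in the same direction. Tek also passed on control diet alone, at 0.52 (adjusted p = 0.0232), but not when summed by shared number, at 0.51 (adjusted p = 0.295).

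Kdr, the main signalling receptor for Vegfa, was higher at 56.4 ± 5.06 CPM in OE against 42.1 ± 11.9 CPM in CT, a log2 difference of 0.44 (SE 0.117, adjusted p = 0.0318). Flt4, the Vegfc receptor, differed by 0.38 (SE 0.0997, adjusted p = 0.0283). Flt1, which binds Vegfa, Vegfb and Pgf and acts in part as a decoy, went the other way at −0.19 but did not pass (adjusted p = 0.170). Nrp2, the relative of Nrp1, was at 0.63 (SE 0.104, adjusted p = 0.00282) and passed on western diet alone at 0.78 (adjusted p = 0.0322). On western diet with shared numbers summed, Nrp2 was at 0.79 and did not pass (adjusted p = 0.9996). The semaphorin receptor Plxnd1 was at 0.59 (SE 0.111, adjusted p = 0.00527).

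Of the other thrombospondins, Thbs2 and Thbs4 passed and Thbs3 did not. Thbs4 averaged 76.2 ± 31.3 CPM in CT and 166 ± 49.9 CPM in OE, a log2 difference of 1.13 (SE 0.235, adjusted p = 0.00940). Thbs2 differed by 1.17 (SE 0.324, adjusted p = 0.0370). Thbs3 was at 0.54 (adjusted p = 0.168). Neither of the thrombospondin receptors passed, with Cd47 at 0.24 (adjusted p = 0.0657) and Cd36 at 0.02 (adjusted p = 0.919). The list's most abundant gene in CPM was Cd36.

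**Figure D3:**
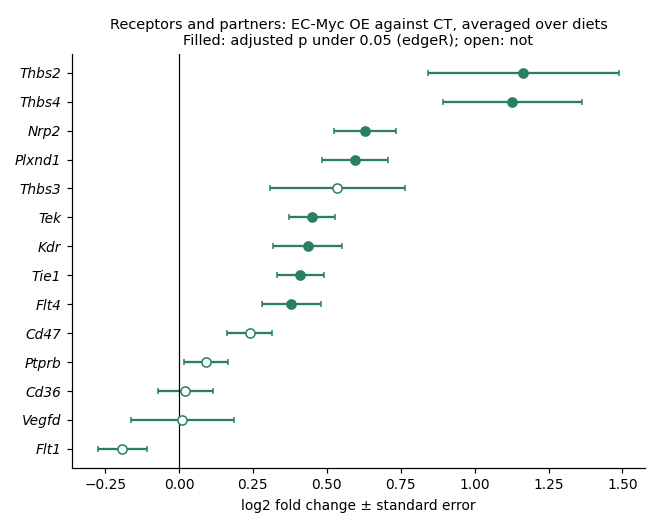
Log2 fold change of OE against CT averaged over diets (edgeR, 14 libraries counted separately, x axis) for the 14 tested receptors and partners, with points for estimates, filled at an adjusted p under 0.05, and lines for 1 standard error. Thbs2 at 1.17 and Thbs4 at 1.13 lie farthest right, and Flt1 at −0.19 is the only point left of 0.

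No receptor or partner was called in either diet comparison. Medians of the list were 0.36 for genotype on western diet, 0.45 on control diet, 0.10 for diet in CT and 0.02 for diet in OE.

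Regulators of the ligands were followed in 4 further lists, again over both diets with 14 libraries. Of all genes, 5.04% were called higher and 3.45% lower, and 13.1% and 10.8% at an unadjusted p under 0.05. A few calls in a list are therefore not read as a result about that list. With libraries of a shared number summed, edgeR called 0 genes in each of these lists and in each marker list. Of 9 regulators of the hypoxia-inducible factors, 0 were higher and 1 lower, with 1 higher and 2 lower at an unadjusted p under 0.05, and the median was −0.01. The lower gene was Hif3a, at −1.52 (SE 0.229, adjusted p = 0.00145), from 3.45 CPM in CT to 1.21 CPM in OE. Hif1a was at 0.20 (adjusted p = 0.1002) and Epas1 at 0.17 (adjusted p = 0.333). Leaving out single libraries gave 0 to 1 higher and 1 to 2 lower.

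Of 20 hypoxia target genes, 2 were higher and 1 lower, with a median of 0.00. Pfkfb3 was higher by 1.04 (SE 0.215, adjusted p = 0.00918) and Hk2 by 0.35 (adjusted p = 0.0282), whereas Pgk1 was lower, at −0.34 (adjusted p = 0.0126). Single-library omissions gave 1 to 3 in each direction. This list did not share the upward median of the 10 genes.

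The PGC-1 and ERR genes, transcription factors and coactivators of oxidative metabolism that regulate Vegfa in muscle, gave 1 higher and 0 lower of 6, with a median of 0.20. That gene was Esrrb, at 14.8 ± 1.78 CPM in CT (SD, n = 6) and 24.2 ± 2.20 CPM in OE (SD, n = 8). Its log2 difference of 0.70 (SE 0.0818, adjusted p = 0.000374) also passed on western diet, at 0.65 (adjusted p = 0.0282), and on control diet, at 0.75 (adjusted p = 0.00605). Esrrb passed on neither diet when summed by shared number, at 0.65 on western diet (adjusted p = 0.9996) and 0.81 on control diet (adjusted p = 0.191). Ppargc1a was at 0.09. The count was 1 to 2 when single libraries were left out.

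Immediate-early genes gave 4 higher and 1 lower of 20, with a median of 0.34. Egr3 was higher by 1.89 (SE 0.398, adjusted p = 0.00990), Junb by 0.87 (SE 0.179, adjusted p = 0.00904), Egr2 by 0.73 (adjusted p = 0.0299) and Ccn2 by 0.57 (adjusted p = 0.0410). Jun was lower, at −0.40 (adjusted p = 0.0323). The number higher was 2 to 5 and the number lower 0 to 1 when single libraries were left out, and in limma on FPKM Jun did not pass. Other settings went beyond that range: 9 higher and 0 lower with the replicate block, 7 and 2 with no filter on low counts, 6 and 1 in DESeq2, and 6 and 0 without both high-mitochondrial libraries. In the same order, those fits called 11%, 5.74%, 6.36% and 10.8% of all genes in either direction. On control diet alone, Egr3, Junb and Ier2 passed, where 1.57% of all genes were called higher, and the median was 0.80. None of these 3 passed when summed by shared number (adjusted p = 0.213 to 0.388). On western diet the median was −0.12, with 0 called in edgeR and 1 higher and 3 lower at an unadjusted p under 0.05. Of all genes, 8.44% were higher and 8.42% lower at that rule. The interaction had a median of −0.85, with 0 called and 11 lower at an unadjusted p under 0.05, against 3.34% of all genes. Of the diets taken singly, only control diet gave an upward median. For diet in CT the median was 0.78, with 0 called in edgeR and 13 higher at an unadjusted p under 0.05, against 4.19% of all genes.

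Markers of the cell types in muscle were compared between genotypes in the same 14-library fit, and calls were found in some lists and not in others. Of all genes, 5.04% were called higher and 3.45% lower in that fit, and 13.1% and 10.8% at an unadjusted p under 0.05. The part of these cell types in the results for the 10 genes was not tested. Of 14 endothelial markers 7 were higher and 0 lower in OE, with a median of 0.29. They were Cdh5 at 0.36, Kdr, Tie1, Tek, Emcn at 0.35, Erg at 0.45 and Ecscr at 0.46. Others of that list were near 0, such as Eng, the most abundant, at 0.04 and Cldn5 at 0.00, while Pecam1 was at 0.22 (adjusted p = 0.0643). Summed over the list, CT-CTD libraries held 549, 547 and 581 CPM, CT-WD libraries 648, 606 and 696 CPM, OE-CTD libraries 673, 686, 659 and 606 CPM, and OE-WD libraries 707, 698, 721 and 698 CPM. The genotypes overlapped in this sum, and 4 to 8 markers were called when single libraries were left out. None of the 14 was at 0 in all libraries. Cdh5 is also the gene whose promoter drives tTA.

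With all 14 libraries, fibroblast markers had the largest share called of the marker lists. Of 10, 8 were higher and 0 lower in OE, with a median of 0.61, among them Col1a1 at 1.53 (adjusted p = 0.0234), Col3a1 at 0.99 (adjusted p = 0.0265) and Dcn at 0.76 (adjusted p = 0.0355). Their sum was 1122, 955 and 803 CPM in CT-CTD, 2077, 945 and 934 CPM in CT-WD, 1865, 2214, 2114 and 1236 CPM in OE-CTD, and 1613, 3056, 1925 and 1404 CPM in OE-WD, with Gsn the most abundant. CT-WD replicate 1 was the only CT library within the OE range. That library was also the CT maximum of Thbs1, Nrp1, Angpt2 and Angpt1. The number called was 3 to 10 when single libraries were left out. Without CT-CTD replicate 3 it was 3 of 10, a smaller share than the 6 of 14 endothelial markers called. The same held without OE-CTD replicate 3, at 4 of 10 against 6 of 14.

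Tendon markers had the highest median, 1.35, with 1 of 6 called, Tnmd at 1.51 (adjusted p = 0.0441). Their sums were 153, 50.5 and 97.0 CPM in CT-CTD, 359, 41.1 and 39.2 CPM in CT-WD, 268, 427, 336 and 200.3 CPM in OE-CTD, and 270.0, 598, 393 and 194 CPM in OE-WD, led by Fmod. Again CT-WD replicate 1 lay inside the OE range and the other 5 CT libraries below it. The number called was 0 to 5 when single libraries were left out. The median then ran from 1.11 to 2.35, the highest without CT-WD replicate 1.

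Pericyte and smooth muscle markers gave 3 of 10 higher (Pdgfrb at 0.32, Cspg4 at 0.72 and Notch3 at 0.33) with sums of 661 to 749 CPM in CT and 704 to 829 CPM in OE, led by Abcc9, and 1 to 3 called when single libraries were left out. Lymphatic endothelial markers gave 2 of 7 (Flt4 and Pdpn at 0.89) with sums of 19.6 to 32.4 CPM in CT and 27.5 to 39.2 CPM in OE, and 0 to 4 called when single libraries were left out. Macrophage markers gave 0 of 8 in edgeR, 5 at an unadjusted p under 0.05, and sums of 41.7 to 126 CPM in CT and 75.3 to 127 CPM in OE, led by Lyz2. DESeq2 called 2 of them and edgeR with no filter 4, and single omissions gave 0 to 5 (5 without CT-WD replicate 1). No list had a gene at 0 in all libraries.

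Muscle fibre markers gave 0 of 13 with a median of −0.01, led by Myh4, and fast fibre markers 0 of 9 with a median of −0.08. Slow fibre markers gave 2 of 8 (Atp2a2 at 0.41 and Casq2 at 0.40) with sums of 4025 to 5513 CPM in CT and 4991 to 6511 CPM in OE. Satellite cell markers gave 1 of 6, Myod1, lower at −0.62. Adipocyte markers gave 1 of 7, Lep, higher at 2.25, whereas Cfd at −0.96 and Fabp4 at −0.33 were lower at an unadjusted p under 0.05, and the median of the list's sums was 299 CPM in CT and 274 CPM in OE. Schwann cell, blood and epidermis markers gave 0 of 6 tested genes each, with medians of 0.16, −0.06 and 0.47 and 0, 0 and 1 gene at an unadjusted p under 0.05. Without the high-mitochondrial libraries, 2 muscle fibre markers and 1 fast fibre marker were called lower, and the replicate block gave the same 2 counts. Those libraries, OE-CTD replicate 4 at 197718 CPM and OE-WD replicate 4 at 201904 CPM, had the highest muscle fibre sums of the 14 libraries, and the other 6 OE libraries held 143035 to 158165 CPM. Single omissions gave 0 to 1 called higher for muscle fibre, 2 to 3 for slow fibre and 0 to 2 for epidermis. Over them the median ran from −0.004 to 0.38 for Schwann cell, −0.18 to 0.04 for blood and 0.23 to 1.41 for epidermis. For epidermis the sums ran from 4.85 to 105 CPM in CT and from 2.45 to 133 CPM in OE.

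For each of the 10 genes, the genes most like it in log2 CPM over the 14 libraries were found among 11783 protein-coding genes, as a description with no test. These libraries share groups, and the highest of many correlations is high by selection. Nrp1 was closest to Tcf4 (Pearson r 0.97) and Agap1 (0.89), and Thbs1 to Rab7b (0.95) and Ctgf (0.94), the latter being the immediate-early gene Ccn2. Angpt1 was closest to Fgfrl1 (0.93) and Lrtm1 (0.93), and Angpt2 to Coro1b (0.93) and Gltp (0.92). Apln was closest to Carns1 (0.92) and Kctd12b (0.91), and Aplnr to Tnfrsf21 (0.92) and Rhobtb1 (0.91).

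The growth factors had other neighbours. Vegfa was closest to Ift81 (0.89) and Phyh (0.87), and Vegfb to Actn2 (0.91) and Crat (0.90). Vegfc was closest to Rbms1 (0.91) and Sema3a (0.87), and Pgf to Klhl33 (0.90) and Baiap2l2 (0.90). None of the 10 genes was among the closest pair of another.

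The 10 genes are protein coding and spread over 7 chromosomes in GRCm38 (mm10). Angpt1 (ENSMUSG00000022309) lies at chr15:42424723-42676977, Apln (ENSMUSG00000037010) at chrX:48025146-48034853 and Angpt2 (ENSMUSG00000031465) at chr8:18690263-18741562, all on the minus strand. Aplnr (ENSMUSG00000044338) lies at chr2:85136225-85139923 and Thbs1 (ENSMUSG00000040152) at chr2:118111876-118127133, both on the plus strand. Vegfc (ENSMUSG00000031520) at chr8:54077606-54187096 and Nrp1 (ENSMUSG00000025810) at chr8:128358604-128503363 are also on the plus strand. Vegfa (ENSMUSG00000023951) at chr17:46016993-46032369, Vegfb (ENSMUSG00000024962) at chr19:6982473-6987651 and Pgf (ENSMUSG00000004791) at chr12:85166635-85177790 are on the minus strand. Angpt2 lies inside Mcph1 on the opposite strand, which averaged 5.69 CPM, and Angpt1 overlaps the antisense gene Gm17473 at 0.251 CPM.

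Promoter sequence from RefSeq (GRCm38.p6) was given for 6 of the 10 genes, as 8 windows of 250 bases before a transcription start. The others were Angpt1, Angpt2, Aplnr and Thbs1. On both strands the E-box CACGTG, a sequence that Myc with its partner Max binds, was in 0 of 8 windows, and it was in 6.02% of all 32851 windows of that length. The core of the hypoxia response element, ACGTG, which CACGTG also contains, was in 1 window of Vegfa (chr17:46025164-46025413), and in 16.6% of all windows. Its variant GCGTG was in windows of Vegfa, Vegfb, Nrp1 and Pgf and in 28.2% of all windows. The GC box GGGCGG was in windows of Vegfa, Vegfb, Vegfc, Nrp1, Pgf and Apln and in 32.7% of all.

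The window of Apln is shown because Apln was the only gene with a sequence that passed in the 14-library fit. It is the 250 bases at chrX:48034854-48035103 (GRCm38.p6, minus strand, 5′ to 3′), with its single GGGCGG in capitals, starting 144 bases before the transcription start.
Apln: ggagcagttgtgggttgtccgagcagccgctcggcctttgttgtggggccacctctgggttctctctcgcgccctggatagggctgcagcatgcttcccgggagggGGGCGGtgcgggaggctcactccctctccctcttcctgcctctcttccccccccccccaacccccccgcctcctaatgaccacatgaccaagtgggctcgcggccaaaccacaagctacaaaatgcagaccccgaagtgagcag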

How the data were processed

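The authors deposited a gene table with read counts and FPKM for each library, and both were used as deposited. According to the submitters' processing notes, reads were aligned with HISAT2 2.0.5 to mm10 and counted with featureCounts 1.5.0-p3. The strand setting of the counting is not given in the sources used here. Counts were fitted with edgeR 4.0.16 in R 4.3.3 (filterByExpr, TMM, quasi-likelihood F-test, 1 coefficient per group, 14 libraries in 1 fit). P-values were adjusted by Benjamini-Hochberg over all genes tested, and 0.05 was the threshold. DESeq2 1.42.0 and limma 3.58.1 on log2 FPKM with a pseudocount were run beside it. The common biological coefficient of variation was 17.0%. The low-count filter removed 0.0467% to 0.0694% of the counts of a library.

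Settings changed one at a time were the normalization (RLE), the filter, the pseudocount, the groups fitted alone, a block for replicate number and each library left out. The labels give no pairing. Deviations from the group mean correlated between replicates of equal number by 0.123 to 0.385 in CT-WD and CT-CTD and by 0.0711 to 0.338 in OE-WD and OE-CTD, against −0.230 to −0.0647 in OE-WD and CT-WD and −0.122 to 0.0465 in OE-CTD and CT-CTD, so the block was run as an alternative. No pair of libraries in a group was a duplicate at this depth (lowest chi-square per degree of freedom 8.00), though libraries of a shared label number were closest in OE-CTD and, for replicates 1 to 3, in OE-WD. Their counts were also summed and fitted in edgeR on the same genes.

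Named genes were the 10 members, genes of each list that passed in any comparison or otherwise its 3 most abundant in FPKM, and the 2 genes most correlated with each member. Named list genes outside that rule (among them Flt1, Thbs3, Cd47, Hif1a, Epas1, Ppargc1a, Pecam1, Eng and Cldn5) were chosen after their values were seen. The members and the gene lists were chosen with earlier results of these data known.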

Additional observations from a re-analysis of the deposited data

Results flagged for a closer look

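Apln in OE-WD replicate 1 was at 1.52 CPM, against 3.23 to 3.49 CPM in the other 3 OE-WD libraries. The gap was 0.867 of the range of that group, above Dixon's critical value for 4 libraries at the 95% level. All 10 genes were examined in both groups of 4, which makes 20 checks and 1 library past the limit, and chance gives about 1 in 20 where libraries are separate, which the labels do not say. Without this library, the Apln log2 difference between genotypes over both diets was 1.24 (adjusted p = 0.0264), the highest obtained by leaving out a single OE-WD library. The cause of the low value was not tested.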

How the results depend on the processing

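The number of the 10 genes called stayed at 0 under every alternative run, single-library omissions included (0 to 0), for diet in CT, diet in OE, diet averaged over genotypes and the interaction. For OE-WD against CT-WD, where edgeR called 0, DESeq2 called 1, no filter on low counts 2 and an unadjusted p under 0.05 4, and omissions gave 0 to 3 (3 without CT-WD replicate 1). For OE-CTD against CT-CTD, also 0, no filter gave 2 (2.72% of all genes) and the groups fitted alone 1 (4.04%). An unadjusted p gave 4 (15.9%), with 0 to 0 over omissions. For genotype averaged over diets, 3 became 1 in limma on log2(FPKM + 1) with no filter (2.23% of all genes). It was 5 without both libraries highest in mitochondrial share (10.8%), which leaves each OE group only libraries of a shared number. At an unadjusted p it was 7 (23.9%). Omissions gave 0 to 6 (0 without CT-CTD replicate 3, 6 without CT-WD replicate 1). The 8 receptors and partners called higher became 5 in limma with no filter and 5 to 10 over omissions. With libraries of a shared label number summed (9 units), the 3 genes became 0 and the 8 receptors and partners 0. This fit has fewer units, and Angpt1 at 0.64 (adjusted p = 0.366), Apln at 1.08 (adjusted p = 0.454) and Aplnr at 0.85 (adjusted p = 0.351) kept their direction. The mitochondrial and summed alternatives and all those for the receptor list were chosen after seeing the data.

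With replicate number as a block, pairing libraries of equal number, the count was 2 on control diet (Apln at 1.25, adjusted p = 0.0434, and Thbs1 at 1.76, adjusted p = 0.0492) and 5 for genotype averaged over diets. On control diet the block called 776 of 14758 genes (5.26%), against 413 of 15458 (2.67%) in the main fit. Averaged over diets it called 1695 of all genes (11%), against 1312 (8.49%). In the averaged comparison the block added Vegfc at 0.60 (adjusted p = 0.0358), Angpt2 at 0.81 (adjusted p = 0.0221) and Thbs1 at 1.38 (adjusted p = 0.0308) and dropped Apln at 1.14 (adjusted p = 0.0579). Since no pairing is given in the labels, neither count is preferred.

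Angpt1 over both diets kept its direction, at 0.47 to 0.75 over omissions and 0.53 to 0.64 otherwise, and missed the threshold only without CT-CTD replicate 3 and when summed. Apln was at 0.93 to 1.43 over omissions and 0.49 to 1.16 otherwise. It missed the threshold in limma on log2(FPKM + 0.1) (adjusted p = 0.0511) and in limma with no filter (adjusted p = 0.0816). Aplnr was at 0.79 to 1.12 over omissions, and it missed the threshold in limma with no filter (adjusted p = 0.0874).

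Signs turned only for differences that did not pass. With the block and without the high-mitochondrial libraries, Vegfa in OE-WD against CT-WD was at 0.0016 and 0.0046, Vegfb in OE-CTD against CT-CTD at −0.0469 and −0.0503, and Vegfb over both diets at −0.0598 and −0.0637. When summed by label number, the Angpt1 interaction was −0.0221 and Vegfa over both diets −0.0373. The Apln interaction was −0.0304 without the high-mitochondrial libraries. Over omissions, Thbs1 in CT ran from −0.0216 to 1.17 and Vegfc in OE from −0.0456 to 0.29 for diet. OE-WD against CT-WD ran from −0.18 to 0.00755 for Vegfa, −0.0882 to 0.06 for Vegfb and −0.0123 to 0.95 for Pgf. OE-CTD against CT-CTD ran from −0.0491 to 0.11 for Vegfb. The interaction ran from −0.23 to 0.33 for Angpt1 and −0.29 to 0.73 for Apln. Diet averaged over genotypes ran from −0.22 to 0.0577 for Angpt1 and −0.0912 to 0.50 for Thbs1. Genotype averaged over diets ran from −0.0209 to 0.0924 for Vegfa and −0.0349 to 0.0507 for Vegfb. Of 822 values in all, 735 kept direction and side of the threshold, and where they did not the cause was not tested. Apln and Pgf, with as few as 8 and 9 counts in a library, are the members whose values depth limits most.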
